A study of Homo sapiens with 2 samples.

Results

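The sine oculis homeobox genes SIX2, SIX3, SIX4, SIX5 and SIX6 and the eyes absent genes EYA1, EYA2, EYA3 and EYA4 were 9 of 20136 protein-coding genes. A deposited ATAC-seq peak was taken for a gene when any base of it lay 3 kb or less from the transcription start site (TSS) or inside the gene body, with gene models of GENCODE on hg19 (GRCh37). This rule used the position of the peaks and not their height, and it took 12 of 114060 DMSO peaks and 36 of 161184 MAK683 peaks. Chromatin accessibility was measured in the cell line G401, which was established from a rhabdoid tumor of the kidney and lacks SMARCB1, a subunit of the SWI/SNF remodeler. The cultures received either DMSO, the solvent, or MAK683, an inhibitor of Polycomb repressive complex 2 (PRC2) that acts through its EED subunit, for 3 days. The series text gives a MAK683 dose of 3 μM. Each group was 1 library from this single cell line, so every difference below is between 2 libraries, has no replicate check and carries no p-value.

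Proteins of the sine oculis family, here SIX2 to SIX6, are homeodomain transcription factors, and EYA proteins are coactivators with phosphatase activity that do not bind DNA themselves and are brought to their target genes by such partners. With PAX and DACH proteins they form a network that works in the eye, ear, muscle and kidney of the embryo. In the developing kidney, Six2 keeps nephron progenitors in the cap mesenchyme and Eya1 is needed for outgrowth of the ureteric bud. Genes of such developmental regulators are classical targets of PRC2, which methylates lysine 27 of histone H3. ATAC-seq reports where the Tn5 transposase could insert into open DNA, and in bulk cells a site open in fewer cells and a site less open in each cell cannot be told apart.

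The libraries held 16598348 (DMSO) and 18265284 (MAK683) tags after filtering. Peak height is the number of tags piled up at the summit per 1000000 of these tags (RPM), so that 1 tag was worth 0.0602 RPM (DMSO) or 0.0547 RPM (MAK683). The lowest peak called held 6 tags in both libraries, and a gene with no peak is therefore one whose sites stayed under the calling limit, not one shown to be closed. Heights are given with 95% Clopper-Pearson intervals, and log2 ratios of MAK683 to DMSO with 95% intervals from Poisson counting error. All intervals cover counting error only, since the reads carried no molecular identifiers and need not come from separate molecules. Of the markers of the cell line, SMARCB1 had no peak in the gene in either library. VIM, a mesenchymal gene, had promoter peaks of 44 tags (DMSO) and 41 tags (MAK683), while PTPRC, a leukocyte gene, had no promoter peak in either and 1 (DMSO) and 6 (MAK683) peaks in the gene. The epithelial genes EPCAM (12 and 11 tags) and CDH1 (18 and 17 tags) and the neuronal gene MAP2 (30 and 31 tags) also had promoter peaks in both, and MAP2 had 2 and 14 peaks in the gene.

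Promoter sites of SIX2, SIX4, SIX6, EYA2, EYA3 and EYA4 are given below as 151-bp windows centred on the summit, read from the GRCh37 reference in the direction of transcription of the gene. The EYA2 and EYA4 windows with the MAK683 summits were shortened to 108 and 109 bp to leave out exons, and no window is given for SIX5 and EYA1. They show where promoter peaks were placed and how far CpG sites, printed in capitals, filled these positions. Not every window is the tallest peak of its library. The far upstream EYA3 window is a DMSO peak of 14 tags, below the 38 tags at the TSS. Where a region was shared (SIX4, EYA3 and EYA4), only the MAK683 summit is shown.
SIX4 intron 1, chr14:61188419-61188569, minus strand, highest point of the MAK683 peak: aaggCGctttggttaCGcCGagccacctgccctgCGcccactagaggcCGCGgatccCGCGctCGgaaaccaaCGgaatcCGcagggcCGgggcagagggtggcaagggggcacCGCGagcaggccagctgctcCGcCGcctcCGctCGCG
SIX2 upstream, chr2:45239141-45239291, minus strand, MAK683 peak: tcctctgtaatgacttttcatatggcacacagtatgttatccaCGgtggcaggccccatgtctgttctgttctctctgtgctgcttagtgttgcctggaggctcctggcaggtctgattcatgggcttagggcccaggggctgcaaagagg
SIX6 upstream, chr14:60973991-60974141, plus strand, DMSO peak: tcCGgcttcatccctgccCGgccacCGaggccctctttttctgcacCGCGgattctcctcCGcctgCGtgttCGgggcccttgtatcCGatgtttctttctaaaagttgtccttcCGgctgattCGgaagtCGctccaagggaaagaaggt
SIX6 intron 1, chr14:60976708-60976858, plus strand, MAK683 peak: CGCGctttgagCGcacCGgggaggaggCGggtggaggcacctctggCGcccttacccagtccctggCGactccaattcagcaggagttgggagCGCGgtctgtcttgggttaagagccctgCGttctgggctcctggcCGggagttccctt
EYA2 upstream, chr20:45523155-45523262, plus strand, MAK683 peak: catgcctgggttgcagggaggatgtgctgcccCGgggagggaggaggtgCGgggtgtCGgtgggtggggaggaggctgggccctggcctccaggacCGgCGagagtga
EYA2 intron 1, chr20:45524344-45524494, plus strand, DMSO peak: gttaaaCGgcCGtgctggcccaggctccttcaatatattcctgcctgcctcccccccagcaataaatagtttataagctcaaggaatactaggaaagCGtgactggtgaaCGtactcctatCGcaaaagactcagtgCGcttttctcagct
EYA3 upstream, chr1:28415152-28415302, minus strand, highest point of the MAK683 peak: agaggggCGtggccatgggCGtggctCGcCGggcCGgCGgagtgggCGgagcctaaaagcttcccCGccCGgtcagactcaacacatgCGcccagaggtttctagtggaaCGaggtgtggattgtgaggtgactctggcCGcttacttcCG
EYA3 far upstream, chr1:28417807-28417957, minus strand, DMSO peak: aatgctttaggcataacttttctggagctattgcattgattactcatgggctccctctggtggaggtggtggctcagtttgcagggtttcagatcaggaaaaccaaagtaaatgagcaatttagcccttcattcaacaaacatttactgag
EYA4 intron 1, chr6:133564009-133564117, plus strand, highest point of the MAK683 peak: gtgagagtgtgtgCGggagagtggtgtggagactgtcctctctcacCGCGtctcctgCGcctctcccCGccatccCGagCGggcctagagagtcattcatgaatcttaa

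The windows differed widely in base composition. The SIX4 window held 19 CpG sites at a G+C content of 72.8% and the EYA3 window next to the TSS held 13 at 64.9%, whereas the SIX2 window held 1 and the far upstream EYA3 window held none. The SIX6 windows held 12 (DMSO summit) and 11 (MAK683 summit), so both placements were CpG-rich.

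Within 3 kb of the TSS, 7 of the 9 genes (77.8%) had a peak in DMSO and 8 (88.9%) had one in MAK683, near the shares of all protein-coding genes, 72.8% and 78.8%. SIX2 had a peak in the MAK683 library alone, which made 1 of the 8 genes with any promoter peak, against 9.77% of all protein-coding genes with one. None of the 9 had a promoter peak in the DMSO library alone, against 2.29%. SIX3 had none in either library. The heights fell into separate patterns: SIX4, SIX5 and EYA3 had the tallest DMSO peaks, above 2 RPM, and were lower in the MAK683 library, while EYA1 and EYA4 stayed under 1 RPM in DMSO and were higher in MAK683. At 1 RPM or more, 3 genes (SIX4, SIX5 and EYA3) had a promoter peak in DMSO, and 5, with EYA1 and EYA4 added, in MAK683. None of the 7 log2 intervals that could be computed excluded 0.

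**Figure D1:**
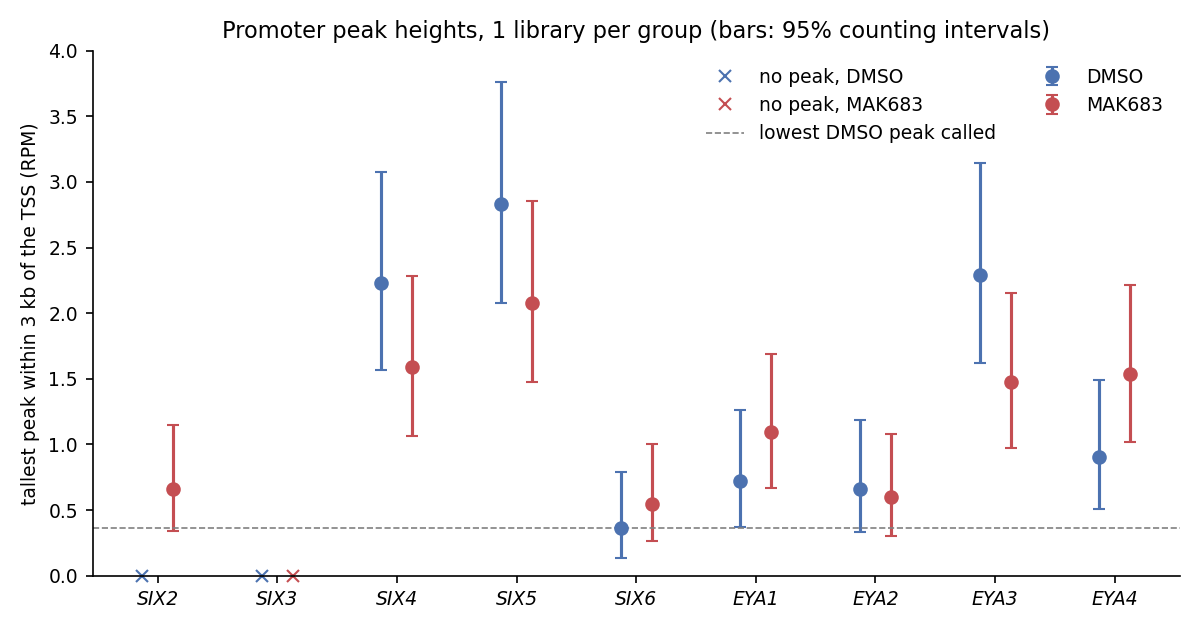
Height in RPM of the tallest peak within 3 kb of the TSS of each gene, in the DMSO (blue) and MAK683 (red) libraries. Points are single libraries, bars are 95% Clopper-Pearson counting intervals, crosses at 0 mark no called peak, and the dashed line is the lowest DMSO height called, 0.361 RPM; the bars of each gene with 2 points overlap.

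SIX2 is the nephron progenitor factor (ENSG00000170577, chr2:45232321-45236591, minus strand). It had no peak in the DMSO library within 3 kb of its TSS. In the MAK683 library a peak of 12 tags stood at 0.657 RPM (0.339 to 1.15). Its summit lay 2625 bp upstream of the TSS, in the CpG-poor window printed above, and its nearer edge was 1722 bp away, so the TSS itself had no peak in either library. Another annotated TSS, of a gene without a symbol, also lay within 3 kb of this peak. Set against a floor of 0.361 RPM, the lowest DMSO height called, the MAK683 height was at least 1.82 times as high, a log2 ratio of 0.86. The lower bound of the MAK683 interval lay below this floor, so the difference between the libraries was not detectable at this depth. SIX3, a factor of the eye and forebrain (ENSG00000138083, chr2:45168841-45173210, plus strand), had no peak in its promoter or gene body in either library.

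SIX4, which acts in muscle formation, showed broad open chromatin over its TSS and first intron (ENSG00000100625, chr14:61176257-61191069, minus strand). The DMSO peak was 3823 bp long and reached 37 tags, or 2.23 RPM (1.57 to 3.07). The tallest MAK683 peak was 3138 bp long and reached 29 tags, or 1.59 RPM (1.06 to 2.28), with a further peak of 12 tags behind it. Both peaks spanned the TSS, but their summits lay inside intron 1, at 1855 bp (DMSO) and 2575 bp (MAK683) downstream of it. The log2 ratio was -0.49 (-1.19 to 0.21), and the peaks covered nearly the same length of the 6001-bp window around the TSS, 3397 bp in DMSO and 3293 bp in MAK683. A further peak of 12 tags, in a coding exon 10612 bp downstream of the TSS, was called in the DMSO library alone.

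SIX5 carried the tallest promoter peak of the family (ENSG00000177045, chr19:46268043-46272510, minus strand). It reached 47 tags, or 2.83 RPM (2.08 to 3.77), in DMSO and 38 tags, or 2.08 RPM (1.47 to 2.86), in MAK683. These peaks ran over 7904 bp and 6910 bp and filled the whole 6001-bp window in both libraries. The log2 ratio was -0.44 (-1.06 to 0.17). The summits, only 38 bp apart, lay 1434 bp (DMSO) and 1472 bp (MAK683) upstream of the SIX5 TSS and inside a neighbouring protein-coding gene and an antisense RNA, so this accessibility cannot be assigned to SIX5 alone.

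SIX6, a factor of the eye and pituitary, had only low peaks (ENSG00000184302, chr14:60975864-60979568, plus strand). The DMSO peak held 6 tags, the calling limit, at 0.361 RPM (0.133 to 0.787) and stood 1798 bp upstream of the TSS. The MAK683 peak held 10 tags at 0.547 RPM (0.263 to 1.01) and stood 919 bp downstream, in intron 1. They were different sites, 2717 bp apart, and another annotated gene overlaps both, so the log2 ratio of 0.60 (-0.86 to 2.06) compares the tallest peaks of the window and not 1 element in both libraries.

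**Figure D2:**
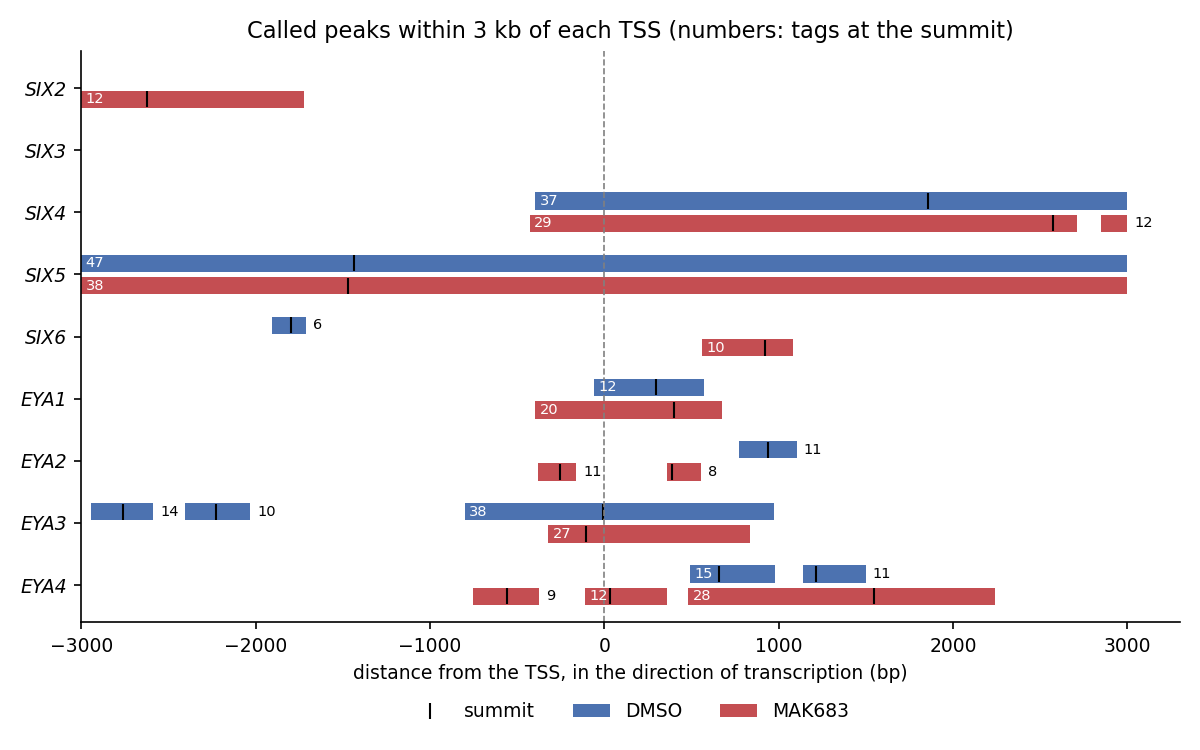
Called peaks within 3 kb of each TSS, on an axis of bp in the direction of transcription, with DMSO above (blue) and MAK683 below (red). Bars are peaks clipped at 3 kb, black ticks are summits inside the window, and numbers are tags; SIX5 fills the window in both libraries, SIX6 and EYA2 have peaks at different positions, and EYA4 covers 845 bp in DMSO and 2609 bp in MAK683.

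Among the EYA genes, EYA1, the gene mutated in branchio-oto-renal syndrome (ENSG00000104313, chr8:72109668-72504260, minus strand), had a single DMSO peak, over its TSS. It held 12 tags, or 0.723 RPM (0.374 to 1.26). The MAK683 peak at the same place held 20 tags, or 1.09 RPM (0.669 to 1.69). Both summits fell in an untranslated exon, 297 bp (DMSO) and 400 bp (MAK683) downstream of the TSS, and the peak was 632 bp long in DMSO and 1070 bp in MAK683. The MAK683 height was 1.51 times the DMSO height, a log2 ratio of 0.60 (-0.43 to 1.63).

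EYA4, known for its role in the inner ear, showed the largest log2 ratio among the genes with a promoter peak in both libraries (ENSG00000112319, chr6:133561652-133853266, plus strand). In DMSO it had peaks of 15 tags, at 0.904 RPM (0.506 to 1.49), and 11 tags, both in intron 1. In MAK683 a single peak of 1760 bp spanned both and reached 28 tags, or 1.53 RPM (1.02 to 2.22), with its summit 1547 bp downstream of the TSS. The MAK683 height was 1.70 times the DMSO height, a log2 ratio of 0.76 (-0.14 to 1.67). The taller DMSO peak had its summit 657 bp downstream of the TSS, 890 bp from the MAK683 summit, which lay outside both DMSO peaks. This ratio thus compares different positions within 1 merged region. Peaks of 12 tags, 31 bp downstream of the TSS, and of 9 tags, 559 bp upstream of it, were called in MAK683 alone, and the peaks covered 845 bp of the window in DMSO and 2609 bp in MAK683.

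EYA3, a broadly expressed member, had the lower height in MAK683 (ENSG00000158161, chr1:28296855-28415148, minus strand). Its peak over the TSS held 38 tags in DMSO, at 2.29 RPM (1.62 to 3.14), and 27 tags in MAK683, at 1.48 RPM (0.974 to 2.15). The log2 ratio was -0.63 (-1.34 to 0.08), the lowest of the family. Peaks of 10 and 14 tags at 2227 and 2761 bp upstream, and of 9 tags 3346 bp downstream, were called in DMSO alone, and the peaks covered 2509 bp of the window in DMSO and 1160 bp in MAK683. The EYA3 window that faces the TSS was CpG-rich and the far upstream one, printed above, had no CpG.

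EYA2 had low promoter peaks at different positions in the libraries (ENSG00000064655, chr20:45523263-45817492, plus strand). The DMSO peak held 11 tags, or 0.663 RPM (0.331 to 1.19), 937 bp downstream of the TSS in intron 1. The tallest MAK683 peak held 11 tags as well, or 0.602 RPM (0.301 to 1.08), but lay 252 bp upstream, and a further one of 8 tags lay 388 bp downstream. The log2 ratio of these heights was -0.14 (-1.34 to 1.07), again between different sites, 1189 bp apart. Among all 14283 protein-coding genes with a promoter peak in both libraries, the tallest peaks did not overlap at 7.30%.

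Over the 8 genes with a promoter peak in either library, the log2 ratio had a median of 0.23, and 4 genes were higher and 4 lower in MAK683. All 16242 protein-coding genes with such a peak had a median of -0.42, with 21.5% higher. A height at least 2 times higher in MAK683 (background 3.37%) or 2 times lower (background 5.74%) was seen at 0 of the 8. Among genes with a peak in both libraries, the counting interval lay above 0 at 0.931% and below 0 at 20.6%, and at 0 of the 7 sine oculis and eyes absent genes. The libraries shared 5 regions, those of SIX4, SIX5, EYA1, EYA3 and EYA4, with a median of -0.44, 3 of them lower and 2 higher. Over all 57983 shared regions, at promoters or not, the median was -0.33 and 76.2% were lower. The 5 regions all lay within 3 kb of the TSS. All protein-coding genes with a promoter peak in both libraries had a median of -0.46, close to that of the 5. The interval of none of the 5 excluded 0, against 0.624% (above 0) and 8.27% (below 0) of all shared regions.

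**Figure D3:**
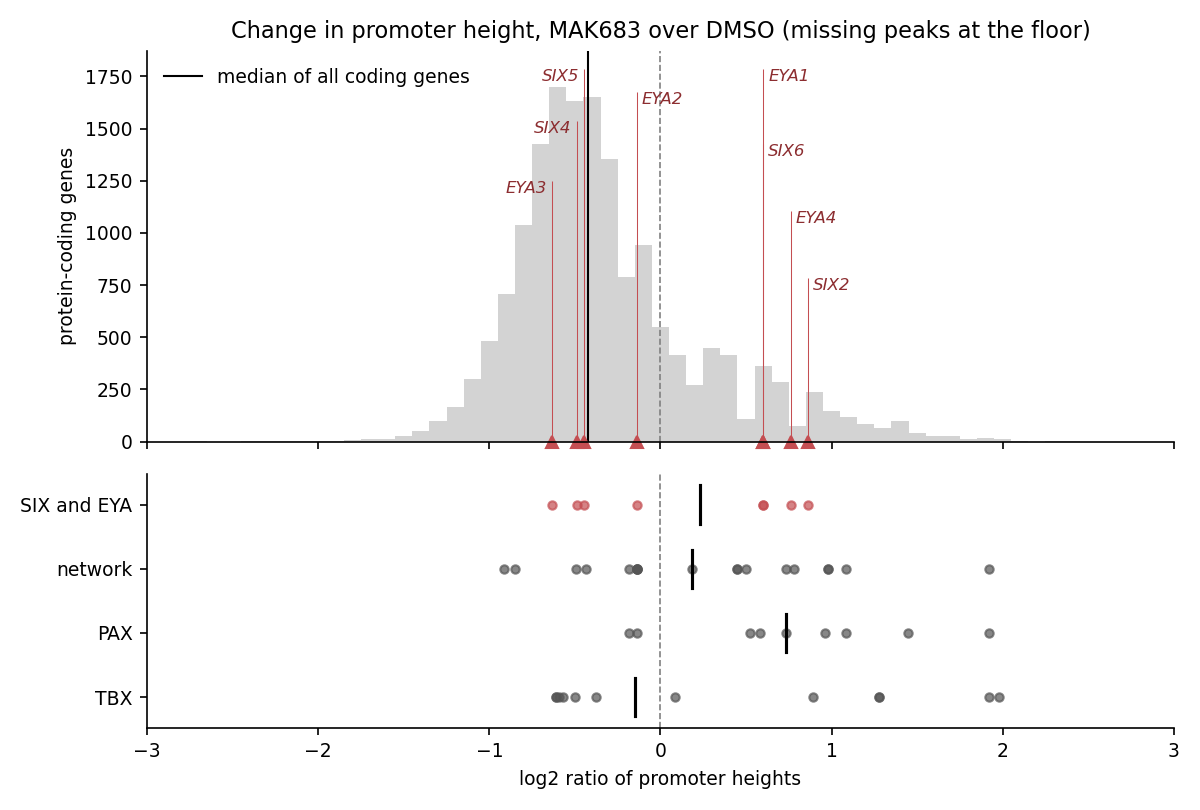
Above, histogram of the log2 ratio of promoter height (MAK683 over DMSO) over 16242 protein-coding genes, with the 8 genes with a promoter peak marked and the median of all genes, -0.42, as a black line. Below, the same ratio for single genes (points) and list medians (bars) of the sine oculis and eyes absent, network, PAX and TBX genes, at 0.23, 0.18, 0.74 and -0.15; a missing peak was set to the floor of 0.361 RPM.

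The split between higher and lower genes went with the DMSO height, which also enters the ratio, and it did so over all promoters. EYA2 was the exception, under 1 RPM in DMSO and slightly lower in MAK683. Of 2185 protein-coding genes with a promoter peak in both libraries and a DMSO height under 1 RPM, 54.0% were higher in MAK683 and the median log2 ratio was 0.05. Of these, 21.3% had a log2 ratio at least that of EYA1 and 14.3% at least that of EYA4. In DMSO, EYA4 stood at 0.904 RPM, near the upper end of this class, and EYA1 at 0.723 RPM. Of 5488 such genes from 1 to 2 RPM in DMSO, 11.9% were higher, 0.966% reached the ratio of EYA1 and 0.401% that of EYA4. Whether either gene stood out among promoters of its own height was not tested. Of 6610 genes with a DMSO height of 2 RPM or more, 1.45% were higher and the median was -0.55, beside which SIX4 (-0.49) and SIX5 (-0.44) were close to the typical value and EYA3 (-0.63) somewhat lower. Low peaks enter only if they passed the calling limit in both libraries, and the part of this limit in the pattern was not tested. Covered length gave 5 of the 8 genes wider in MAK683 (SIX2, SIX6, EYA1, EYA2 and EYA4), against 32% of all genes with a promoter peak.

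Peaks inside the genes differed more than promoter peaks. Within 3 kb of the TSS the 9 genes had 10 DMSO and 12 MAK683 peaks, a ratio of 1.20 (0.518 to 2.78). In the gene bodies beyond that distance they had 2 and 24, a ratio of 12 (2.84 to 50.8), and no body region was shared. EYA1 held 19 of these 24 peaks, some of them close together. The interval takes each peak as separate, so it does not measure a difference shared by the 9 genes. All peaks of the genome, not only those in gene bodies, gave a ratio of 1.41. After overlapping peaks were merged, 41 regions remained, of which 30 (73.2%) were found in MAK683 alone, against 45.9% of all regions, 6 (14.6%) in DMSO alone, against 25.1%, and 5 in both. Most body regions lay in EYA1 and EYA4, and SIX2, SIX3, SIX5 and SIX6, under 5 kb long, had little gene body beyond 3 kb.

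EYA1 accounted for 19 of the 30 regions found in MAK683 alone. It had 1 DMSO peak and 20 MAK683 peaks along 394593 bp. The 19 regions held 6 to 17 tags (0.328 to 0.931 RPM), with a median of 10, and together covered 9466 bp. Downstream of the TSS lay 13 of them, with 5 in intron 12, 129.8 to 141.4 kb from the TSS, 2 in intron 11 and 2 in intron 7. Another annotated gene, without a symbol, overlapped the summits at 138.8 and 141.4 kb. The other 6 of the 19 regions lay 124.6 to 195.5 kb upstream, in introns of longer EYA1 transcripts. The tallest, of 17 tags (0.931 RPM, 0.542 to 1.49), stood 5468 bp downstream of the main TSS at chr8:72268724-72269928 and covered start sites of other EYA1 transcripts, at which the DMSO library had no peak. No peak of either library came within 3 kb of the start sites 185.6 to 186.1 kb upstream.

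EYA4 had 2 DMSO and 7 MAK683 peaks, and its 4 body regions, all found in MAK683 alone, held 7 to 10 tags in introns 2 and 3, 77.6 to 148.0 kb from the TSS. EYA2 had 1 and 3 peaks, with a single body region of 7 tags in intron 10, 255.9 kb from the TSS. EYA3 had 4 DMSO peaks and 1 MAK683 peak and no MAK683 peak in the gene body. Over all called peaks EYA3 was thus opposite in direction to the other 3 genes. At a −log10 q-value of at least 5 this was lost for EYA2 (1 and 1 peaks) and EYA4 (2 and 2), with EYA3 at 3 and 1, and at 10 or more EYA3 and EYA4 had 1 and 1 and EYA2 none.

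**Figure D4:**
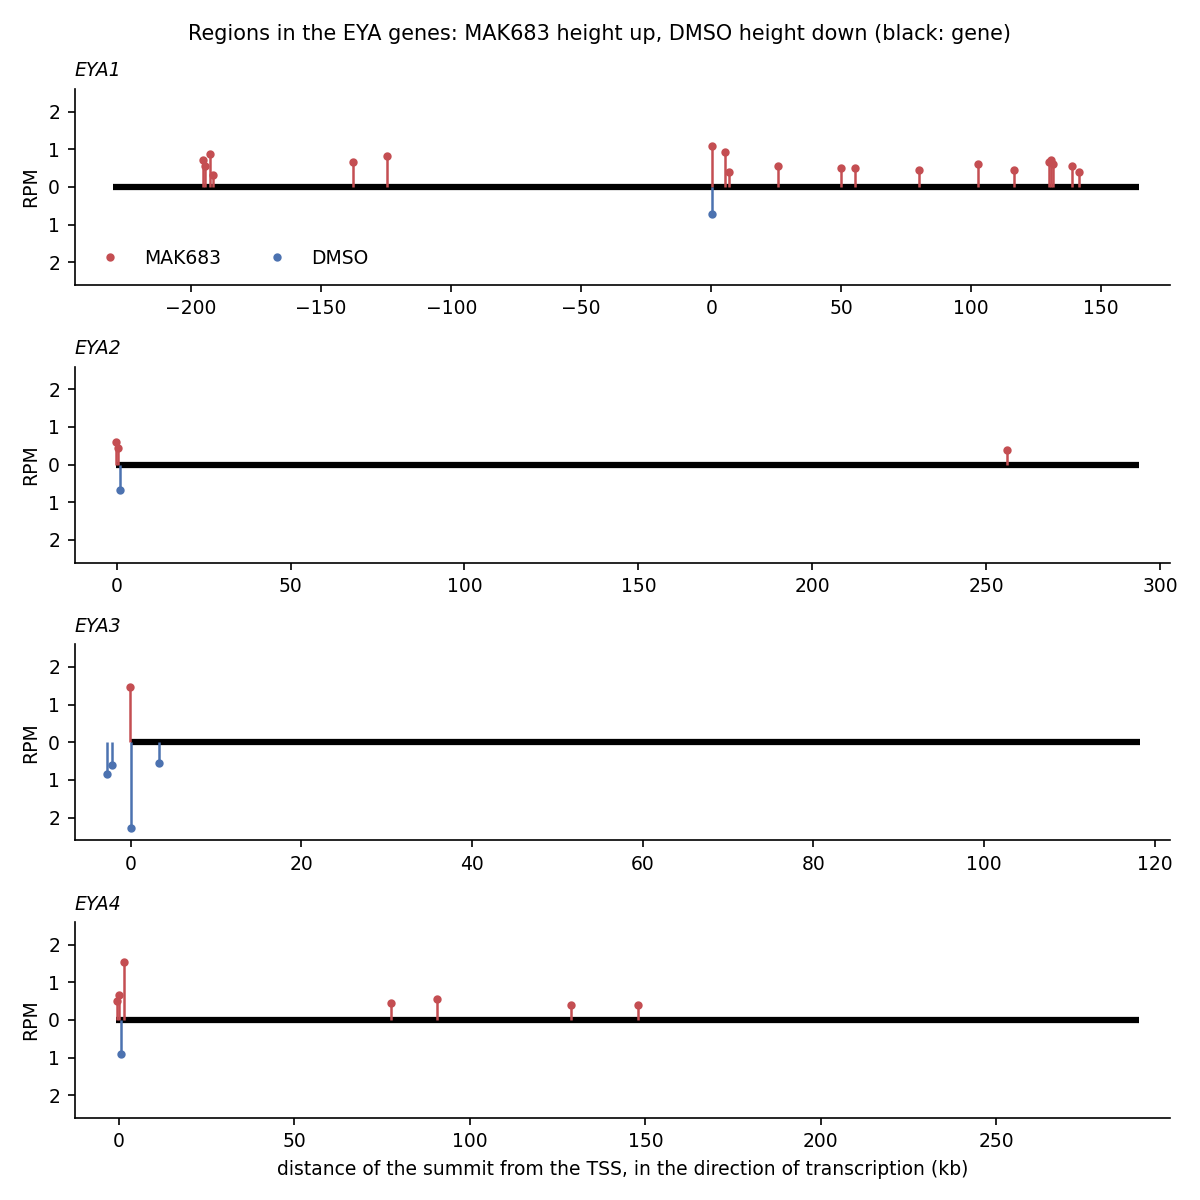
Regions in and around the 4 EYA genes by distance of the summit from the TSS in kb, in the direction of transcription, with MAK683 height in RPM drawn upward (red) and DMSO height downward (blue) and the gene as a black bar. Each line is 1 merged region at its tallest peak; the 19 EYA1 regions found in MAK683 alone stay at or under 0.931 RPM and run along most of the gene.

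These regions were low. The 30 found in MAK683 alone had a median of 10 tags and at most 17, and the 6 found in DMSO alone a median of 10.5 and at most 14. None reached 20 tags, a level that 0.309% (MAK683 alone) and 0.0606% (DMSO alone) of all regions reached. Of all 91532 regions found in MAK683 alone, 41.9% held at least 10 tags, and 12 of the 19 EYA1 regions did. With only peaks of a −log10 q-value of at least 5, EYA1 had 1 DMSO and 10 MAK683 peaks, and at 10 or more it had 0 and 3. Without EYA1 the ratio for the remaining 8 genes was 1.45 (0.675 to 3.13; 11 and 16 peaks), close to the ratio of the genome, while with it the ratio was 3.00 (1.56 to 5.77). With stricter peaks the ratio over all 9 genes was lower and its interval included 1, at 1.80 (0.831 to 3.90) for a −log10 q-value of at least 5, 1.75 (0.512 to 5.98) for at least 10 and 1.67 (0.398 to 6.97) for at least 1 RPM.

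Genes of like length give the scale for these counts. Of 3338 protein-coding genes of 100 to 500 kb, the median gene had 5 DMSO and 7 MAK683 peaks, or 2.72 and 4.33 per 100 kb. EYA1 had 0.253 peaks per 100 kb in DMSO, at the percentile 9.05 of these genes, and 5.07 in MAK683, at the percentile 56.3. It thus had few peaks for its length in DMSO and a usual number in MAK683. Its difference of 19 peaks was matched or passed by 11.8% of the long genes. Its ratio of 20, which rests on 1 DMSO peak, was matched or passed by 2.61% of the 3064 long genes with a DMSO peak. Of 363 long genes that also had 1 DMSO peak, the median had 7 MAK683 peaks and 66 (18.2%) had at least 20. EYA4 had 0.686 peaks per 100 kb in DMSO and 2.40 in MAK683 (percentiles 17.3 and 29.6). EYA2 had 0.340 and 1.02 (10.1 and 12.5) and stayed among the sparsest long genes in both. EYA3 had 3.38 and 0.845 (57.2 and 8.93).

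**Figure D5:**
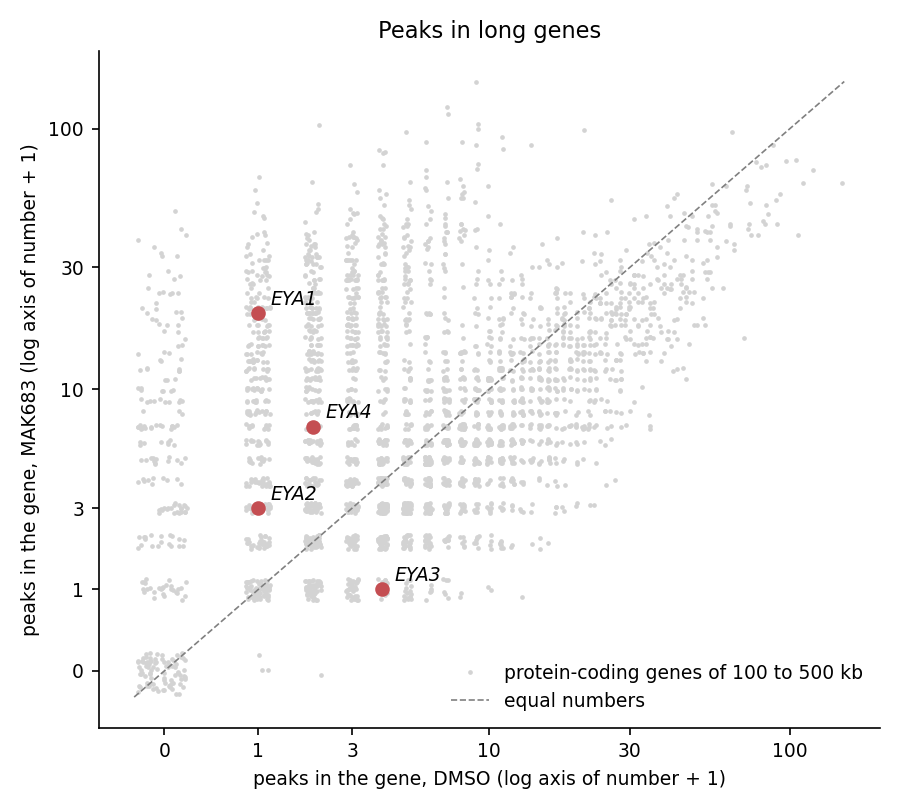
Number of peaks in the gene in the DMSO (x) and MAK683 (y) libraries for 3338 protein-coding genes of 100 to 500 kb (grey, spread slightly to show overlapping points) and the EYA genes (red), on log axes of the number plus 1. EYA1 (1 and 20), EYA4 (2 and 7) and EYA2 (1 and 3) lie above the line of equal numbers, and EYA3 (4 and 1) below it.

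Peaks of the surroundings were counted up to 1 Mb from either end of the gene, without the peaks of the gene itself or of its promoter window. Around EYA1, EYA4 and EYA3 their numbers differed in the same direction as those of the gene. EYA1 had 38 DMSO and 87 MAK683 peaks, a ratio of 2.29 (1.56 to 3.35), and EYA4 had 32 and 120, a ratio of 3.75 (2.54 to 5.54). Around EYA3 the numbers were 252 and 182 (0.722, 0.597 to 0.874) and around SIX5 287 and 218 (0.760, 0.637 to 0.906). These intervals also take each peak as separate and, with 1 library per group, do not measure variation between cultures. EYA2, with more MAK683 peaks in the gene, lay among fewer (131 and 110, 0.840). SIX2 (1.79), SIX3 (1.70), SIX4 (2.85) and SIX6 (2.40) lay in surroundings with more MAK683 peaks, with overlapping windows for SIX2 and SIX3 and for SIX4 and SIX6. Their own peaks did not differ in number at SIX4 (2 and 2) and SIX6 (1 and 1), nor did those of SIX5 (1 and 1). The ratio over whole chromosomes went from 0.848 on chromosome 19, which holds SIX5, to 1.82 on chromosome 8, which holds EYA1. The part of these regional differences in the gene counts was not tested.

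The promoters were mostly CpG-rich in sequence. In the 300 bp from 250 bp upstream to 50 bp downstream of the TSS, 8 of 9 had an observed-to-expected CpG ratio of at least 0.6. The share was 67.0% of all protein-coding promoters and 78.1% of those with a peak. EYA4 (39 CpG sites) and EYA2 (40) were the densest and EYA1 (9, at 43.3% G+C) the sparsest. The motif GGGCGG, read on both strands, was in 8 of 9 and was missing from EYA1. It was in 61.0% of all promoters and 69.6% of those with a peak. TGACTCA was in EYA1 only (3.58% of all promoters), CANNTG in 5 of 9 (63.9%), and TCANGTTTC in none (0.810%). Summit windows beyond the promoters were CpG-poor, with a ratio of at least 0.6 in 7.69% of 26 body regions and 66.7% of 15 proximal ones, against 10.1% of all regions.

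Of 20 other genes of the network and its kidney and muscle context, 19 had a promoter peak, 14 in DMSO (70%, against 72.8% of all protein-coding genes) and 19 in MAK683 (95%, against 78.8%). The median log2 ratio was 0.18, with 10 higher and 9 lower. The 5 network genes with a promoter peak in MAK683 alone (background 9.77%) were PAX3 (25 tags), PAX7 (11), PAX8 (14), SALL1 (13) and MYF5 (13), which are factors of muscle, neural crest and kidney, and DACH2 had none in either. The counting interval excluded 0 only at HOXA11, a homeobox gene of kidney and limb, with 36 tags at 2.17 RPM (1.52 to 3.00) in DMSO and 21 tags at 1.15 RPM (0.712 to 1.76) in MAK683, a log2 ratio of -0.92 (-1.69 to -0.14). This was 1 of 14 network genes with a peak in both libraries, against 20.6% of all protein-coding genes with an interval below 0. Of other developmental families, the 9 PAX genes, 5 of which are also in the network list, had a median of 0.74 and 4 promoter peaks called in MAK683 alone, and 12 of 14 TBX genes had a peak, with a median of -0.15 and 5 called in MAK683 alone. TBX3, named after its values were seen, had the single interval above 0 in these lists, with 22 tags in DMSO and 45 in MAK683, a log2 ratio of 0.89 (0.16 to 1.63). The median of the 8 sine oculis and eyes absent genes lay between those of the PAX and TBX genes, and the difference between families was not tested. These medians rest in part on the floor for missing peaks. Over genes with a peak in both libraries they were -0.14 (network), 0.52 (PAX), -0.57 (TBX) and -0.14 (sine oculis and eyes absent). The median of all protein-coding genes with a peak in both was -0.46.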

How the data were processed

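Chromatin accessibility was profiled by paired 150-bp ATAC-seq in 1 DMSO and 1 MAK683 library of G401 cells. The study's methods name Bowtie2 and hg19 for the alignment. Peaks of each library were called separately by the authors with MACS 2.1.1.20160309 per the file headers (the submitters' processing notes name MACS2 2.1.0 and 2.2.7.1), with tags shifted by -100 bp and extended to 200 bp to centre them on the Tn5 cut, 1 tag kept per position, no control, no local background and a q-value cutoff of 0.05. Regional differences in coverage were therefore not corrected.

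The deposited pileup signal is the whole number of tags over a summit, with no depth scaling. The deposited fold enrichment is a ratio of pileup to the genome-wide background, and it was used only as an alternative height. The deposited peak scores, a −log10 p-value and a −log10 q-value, depend on depth, and only the latter was used, as a filter.

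Peaks outside chromosomes 1 to 22, X and Y were left out. Each gene had 1 TSS, that of its canonical transcript in GENCODE 44 on GRCh37. The promoter height was the tallest peak within 3 kb, and a missing peak took the value 0.361 RPM. Peaks overlapping by at least 1 bp were merged into regions. Shares have Wilson intervals, heights Clopper-Pearson intervals, and log2 ratios and ratios of peak numbers normal-approximation intervals from the Poisson error of their logarithms. The genes named were all 9 members, and of the network list those whose interval excluded 0. PAX3, PAX7, PAX8, SALL1, MYF5 and DACH2 were named after their values were seen. The members and lists were chosen with earlier results of these data known. The log2 intervals were run on counts simulated with Poisson error. That simulation held neither the choice of the tallest peak nor the calling limit, so it bears on the formula only and not on these data. Alternatives were stricter q-values, other windows, TSSs, overlaps and height scales, and, chosen after seeing the data, a minimum of 1 RPM for the genes counted, overlapping tallest peaks, regional centring and leaving out EYA1. Python 3.11.15, numpy 2.4.6, pandas 2.3.3, scipy 1.17.1 and matplotlib 3.10.9 were used.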

Additional observations from a re-analysis of the deposited data

How the results depend on the processing

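No paired analysis was possible because each group was 1 library and no result comes from a test. Of 33 alternatives, 5 turned the direction of a value. The median log2 promoter ratio of 0.23 became -0.14 at a −log10 q-value of at least 5, -0.44 at 10 or more, -0.14 with a 1 kb window, -0.14 without the floor (genes with peaks in DMSO as well as MAK683) and, chosen after seeing the data, -0.44 with genes whose tallest peaks overlap. Fewer genes entered each of these. Without the floor, the median over all protein-coding genes was -0.46. The median of the sine oculis and eyes absent genes stayed above 0, at 0.23 to 0.56, with all transcript start sites, no depth scaling, fold enrichment and either centring. Genes with a promoter peak, 7 in DMSO and 8 in MAK683, numbered 4 and 5 at a −log10 q-value of at least 10 and 3 and 5 at 1 RPM or more, the latter chosen after seeing the data. The peak ratio of 3.00 was 1.20 within 3 kb of the TSS, 12 in gene bodies and 1.45 without EYA1. Stricter q-values gave 1.80 (0.831 to 3.90) and 1.75 (0.512 to 5.98) and 1 RPM or more gave 1.67 (0.398 to 6.97), all with intervals that include 1. The median of the 5 shared regions, -0.44, stayed below 0 under its 7 alternatives, from -0.11 to -0.47. No gene body region was shared, so that alternative gave no value. Without replicates, variation between cultures was not measured, and peaks of 6 to 20 tags lie close to the calling limit.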

Other observations

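Beyond the promoters and gene bodies, 63 regions lay in the flanks of the 9 genes, out to 50 kb. Of these, 25 were shared, 20 of them lower in MAK683, 20 were found in MAK683 alone (6 to 13 tags) and 18 in DMSO alone (7 to 12 tags). Over all regions of the genome, 76.2% of shared ones were lower in MAK683, and 45.9% and 25.1% were found in MAK683 or DMSO alone. The flanks of the neighbouring genes SIX2 and SIX3 held 17 regions, 6 shared and 11 in MAK683 alone. The flanks of SIX5 held 21, 13 shared, of which 12 were lower in MAK683, and 8 in DMSO alone. Those of EYA1 and EYA4 held 6, 1 shared and 5 in MAK683 alone.

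SIX2 and SIX3, which had little or no peak at the promoter, had peaks just outside the 3 kb window. At chr2:45240751-45242021, 4.82 kb upstream of SIX2, both libraries had a peak of 18 tags, or 1.08 RPM in DMSO and 0.985 RPM in MAK683, taller than the MAK683 peak inside the window. At chr2:45162068-45163479, 5.52 kb upstream of SIX3, the peaks held 10 tags in DMSO and 13 in MAK683, and a peak of 9 tags 4.75 kb upstream was called in MAK683 alone. These regions were named after their values were seen.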
